A study of Mus musculus with 12 samples.

Results

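The genes described here are 49 mouse genes of the lysosome, listed by name and function: 12 proteases, 7 lipid hydrolases and their cofactors, 9 sugar hydrolases and sulfatases, 7 membrane proteins and cholesterol carriers, 12 genes of the proton pump and its accessory protein, and 2 transcriptional regulators. They were measured among 23120 genes and transcripts in alveolar macrophages, the resident phagocytes of the air spaces, which were washed from the lungs and purified by flow sorting. The mice were C57BL/6 females of 8 to 9 weeks in 4 genotypes: wild type (WT), Bach1 KO, Bach2 KO, and a double knockout of both genes (DKO). Each genotype had 3 mice and each mouse 1 single-colour Agilent array, so replicates were separate animals. Bach1 and Bach2 are related basic leucine zipper factors that mostly repress transcription. The type of knockout allele was not given in the sources used here, and total RNA of a sorted population was measured, so that fewer cells of a type and less RNA per cell cannot be told apart.

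Lysosomes degrade proteins, lipids and sugars that a macrophage takes up, surfactant included in the alveolus, with hydrolases that work in acid. The acid comes from the V-type proton pump, in which a cytosolic V1 sector splits ATP and a membrane V0 sector carries protons. The factors TFEB and TFE3 bind a palindromic motif around the E-box CACGTG in the promoters of many of these genes, known as the CLEAR element.

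Promoter windows of RefSeq (build GRCm38.p6, from 250 bases before to 50 after a transcript start, 300 bases each) were matched by symbol to 41 of the 49 genes, with 49 windows. The E-box CACGTG, searched on both strands, was present in 14 of these 49 windows (28.6%) and in 2349 of all 32851 windows (7.15%). The longer GTCACGTG, which contains the E-box, was present in 10 windows of the listed genes (20.4%) and in 2.25% of all windows. TGANTCA, the core shared by AP-1 and Bach binding sites, was present in 5 windows (10.2%) and in 7.81% of all windows. Of the genes with a window, the E-box was found in 2 of the 5 that were called higher in Bach2 KO mice. It was found in 5 of the 11 that were called lower and in 7 of the 25 that were not called. Npc1, Atp6v1b2, Atp6v1c1 and Atp6v1h, of the 9 genes called higher, had no window, nor had Ctsh of the 12 called lower. A match describes letters in a window, not binding. The 4 windows printed here all hold the E-box and belong to genes called higher (Lgmn, Glb1) or lower (Ctsf, Lamp1) in Bach2 KO mice. Another window of Lgmn held no E-box, and the direction of Lamp1 depended on the scaling of the arrays, as given below. Matches to CACGTG and TGANTCA are in capitals, 5′ to 3′ on the gene's strand.
Lgmn (chr12:102439043-102439342, minus strand): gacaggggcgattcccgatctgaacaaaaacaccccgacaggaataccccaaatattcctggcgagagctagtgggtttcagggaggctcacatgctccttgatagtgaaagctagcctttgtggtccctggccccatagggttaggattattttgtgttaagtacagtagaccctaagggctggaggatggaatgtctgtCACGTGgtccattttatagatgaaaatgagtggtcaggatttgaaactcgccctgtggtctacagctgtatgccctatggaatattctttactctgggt
Glb1 (chr9:114400828-114401127, plus strand): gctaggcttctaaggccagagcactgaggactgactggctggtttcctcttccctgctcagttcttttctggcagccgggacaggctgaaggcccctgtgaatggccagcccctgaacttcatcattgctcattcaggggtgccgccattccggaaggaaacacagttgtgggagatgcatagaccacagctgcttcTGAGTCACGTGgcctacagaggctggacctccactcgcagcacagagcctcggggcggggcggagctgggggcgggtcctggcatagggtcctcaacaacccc
Ctsf (chr19:4854915-4855214, plus strand): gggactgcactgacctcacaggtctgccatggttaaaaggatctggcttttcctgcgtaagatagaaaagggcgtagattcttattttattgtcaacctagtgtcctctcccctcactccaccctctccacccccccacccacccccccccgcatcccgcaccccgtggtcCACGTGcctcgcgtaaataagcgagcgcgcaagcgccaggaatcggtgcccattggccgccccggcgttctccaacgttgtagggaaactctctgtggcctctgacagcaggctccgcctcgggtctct
Lamp1 (chr8:13158911-13159210, plus strand): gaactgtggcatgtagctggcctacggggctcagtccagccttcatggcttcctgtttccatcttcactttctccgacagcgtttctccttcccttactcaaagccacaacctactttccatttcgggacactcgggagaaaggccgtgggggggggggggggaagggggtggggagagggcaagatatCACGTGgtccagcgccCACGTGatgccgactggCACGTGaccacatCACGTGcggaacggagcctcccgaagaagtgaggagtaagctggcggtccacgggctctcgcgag
In Glb1 the TGANTCA match, 53 bases before the start, overlaps the E-box. Lamp1 holds 4 E-boxes, and Ctsf holds 1 that is not part of GTCACGTG.

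Across the whole series, arrays of one genotype correlated at 0.940 to 0.988 over probes and arrays of different genotypes at 0.823 to 0.981, and 45.2% to 72.4% of 59305 spots per array were well above background, with none saturated. The Bach1 and Bach2 probes were tested in a limma fit over all probes with complete values, without the background filter. The Bach1 probe was lower in Bach1 KO than in WT mice (log2 difference -1.43 ± 0.32 SE) without passing that test (limma adjusted p = 0.305). It was also lower in DKO mice (-1.44, limma adjusted p = 0.0106). Neither Bach2 probe gave a call, and one was below background on all arrays. The position of these probes relative to the deleted parts was not given in the sources used here, so they check the labels only in part. All 11 alveolar macrophage markers were well above background on all 3 arrays of every genotype. Their summed linear level was 1292 to 1597 in WT, 947 to 1538 in Bach1 KO, 434 to 631 in Bach2 KO and 381 to 581 in DKO mice, and 9 of 11 were called lower in Bach2 KO and 8 of 11 in DKO mice (5 and 6 with quantile normalization, 4 and 6 with no scaling). The 5 dendritic cell markers summed to 0.278 to 0.882 in WT, 0.260 to 0.321 in Bach1 KO, 31.0 to 42.1 in Bach2 KO and 16.2 to 43.4 in DKO mice, with 3 of 4 tested called higher in both, and Xcr1 not well above background on any WT, Bach1 KO or Bach2 KO array. The 3 monocyte markers summed to 0.573 to 0.937 in WT, 0.381 to 0.723 in Bach1 KO, 4.11 to 5.39 in Bach2 KO and 11.3 to 15.4 in DKO mice. Of these, F13a1 was called higher in both (9.10 and 10.89), Ccr2 in DKO mice (1.60, limma adjusted p = 0.0344) but not in Bach2 KO mice (1.28, limma adjusted p = 0.0644), and Vcan in neither (-0.35 and -0.62). The T cell markers summed to 78.3 to 147 in WT, 79.3 to 101 in Bach1 KO, 13.9 to 15.6 in Bach2 KO and 7.48 to 10.7 in DKO mice, with Cd2 called lower and 3 of 6 tested called higher. Of 5 osteoclast markers tested, Dcstamp (9.13 in Bach2 KO and 8.38 in DKO mice) and Ocstamp (2.16 and 2.03) were called higher, and Acp5 was called lower (-0.96 and -0.91). Ctsk and Nfatc1 were not called, and Calcr was not well above background in any genotype. Of the other lists in Bach2 KO mice, 1 of 5 neutrophil markers was called higher and 2 lower. Among 4 epithelial markers 1 was higher and 2 lower, and 1 of 2 B cell markers was higher. No eosinophil marker passed the background filter. The part of these marker differences in the lysosomal results was not tested. All DKO arrays lay on 1 slide that held no other genotype, so slide and the DKO genotype cannot be told apart. Bach2 KO replicate 3 was the only array on slide 2. The other Bach2 KO arrays lay on slide 1 with all WT and Bach1 KO arrays. Replicate 3 had 72.4% of spots well above background, beside 48.2% and 54.8% on the other Bach2 KO arrays. It also had the highest 75th percentile of log2 signal of all arrays (11.59).

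A value below is the log2 signal of a gene's brightest probe minus the 75th percentile of its array. It orders samples for 1 gene and not genes against each other. Differences are given with the standard error of limma's fit over all 12 arrays, and a gene is called where the adjusted p over all 23120 genes is under 0.05. Second probes of a gene come from the separate fit over all probes with complete values. Their adjusted p is taken over those probes and not over the 23120 genes. The choice of scaling matters here. The 75th percentile itself was higher on Bach2 KO arrays (11.07 to 11.59) than on WT arrays (10.55 to 10.78), and the median Bach2 KO minus WT difference of all genes was -0.30 with it, -0.53 with scaling to the array median, -0.13 with quantile normalization and 0.39 with no scaling. For DKO minus WT these medians were -0.28, -0.42, -0.10 and 0.16.

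In Bach2 KO against WT mice 21 of the 49 were called, 9 higher and 12 lower, where 12.4% of all genes were called higher and 24.7% lower. The share of lower calls was thus close to that over all genes. The median of the 49 was -0.24, beside -0.30 over all genes. The 9 higher genes stayed higher under all 4 scalings, and 7 of them were called under every one. Within WT, Bach1 KO and Bach2 KO mice, Gm2a, Atp6v1b2 and Atp6ap1 ranked the arrays in the order of their 75th percentile. In DKO mice these genes did not. The other higher genes did not do so in every one of WT, Bach1 KO and Bach2 KO. A scaling of whole arrays cannot remove such a tie of single probes to array signal, and its part was not tested. Of the 12 lower genes, 5 kept their direction under all 4 scalings and 2 their call, Ctsf and Tfeb, while 7 turned to a difference above 0 with quantile normalization. These 7 had the brightest probes of the 21 called genes, with WT means of 6.33 to 7.93. WT means were 0.95 to 5.93 for the 9 higher genes and 2.10 to 5.12 for the other 5 lower genes. The part of probe signal in the direction of these calls was not tested. The split of calls, higher to lower, was 9 to 12 with the 75th percentile, 7 to 12 with the array median, 23 to 3 with quantile normalization and 18 to 2 with no scaling. The same split over all genes called was 33.5% higher with the 75th percentile, 25.4%, 46.1% and 68.8%.

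**Figure D1:**
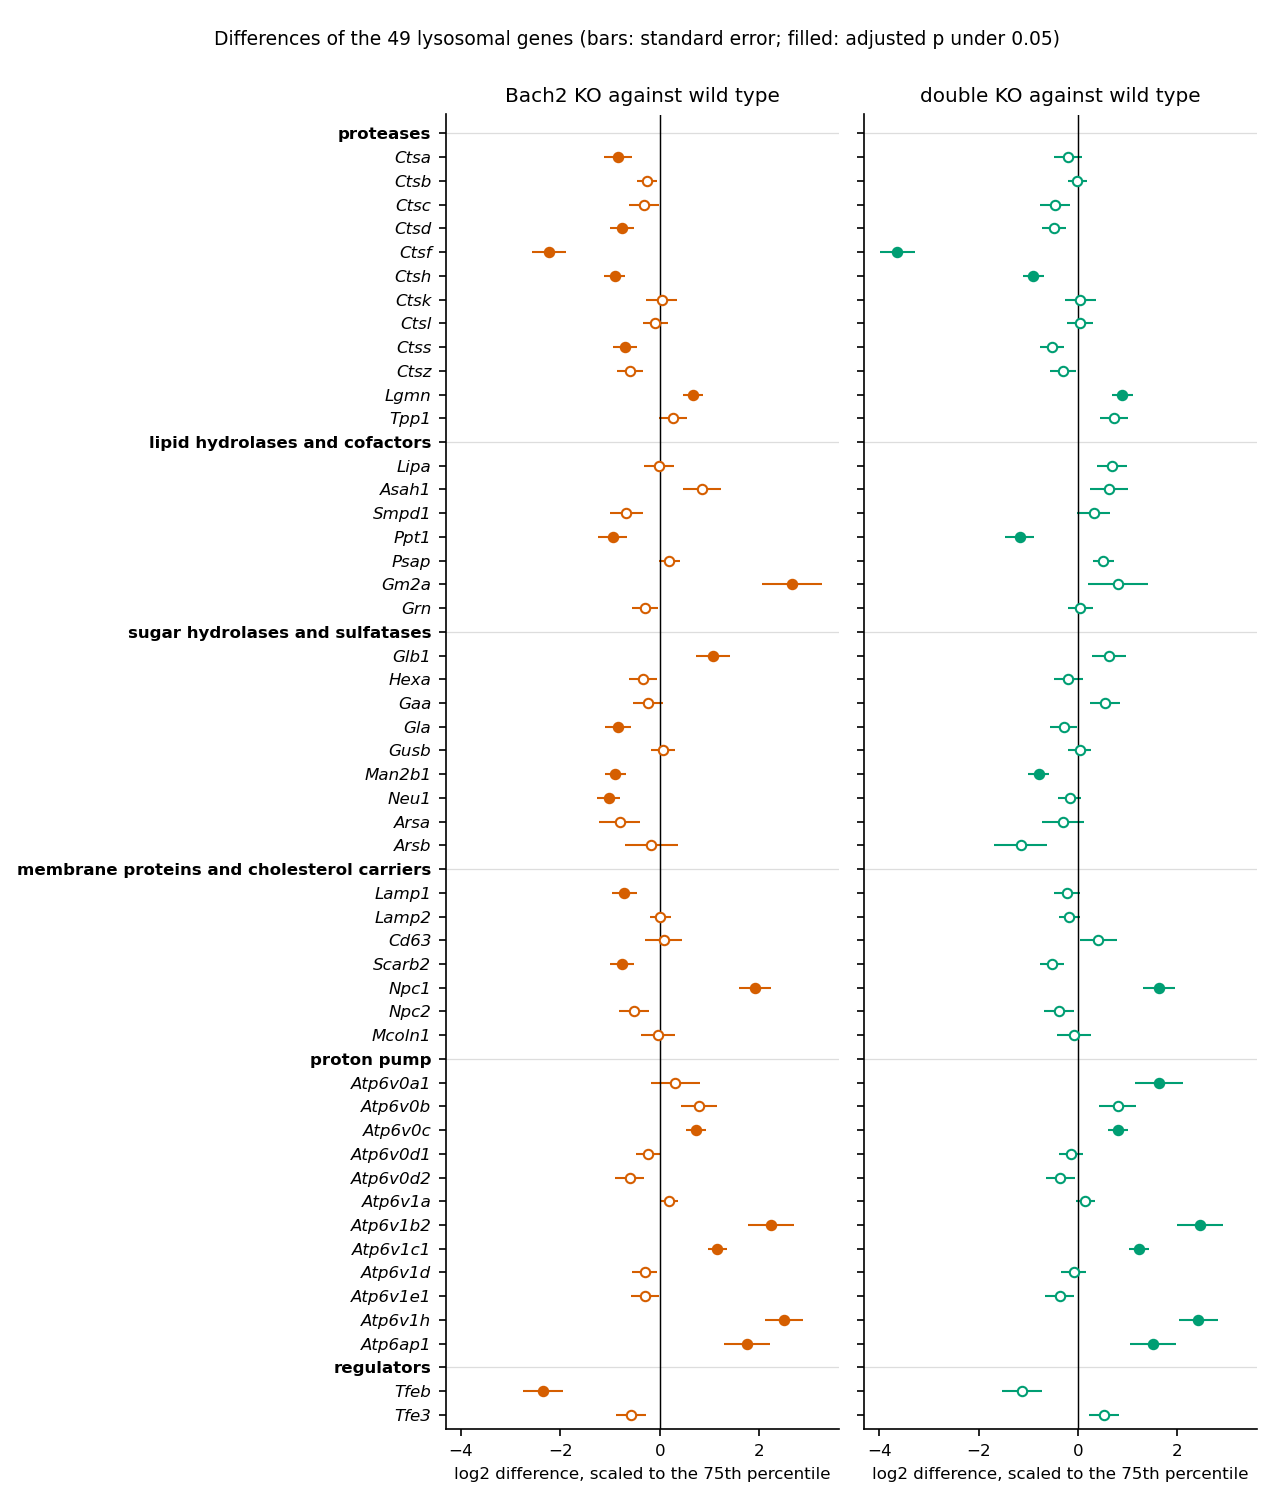
Log2 differences (x axis) of the 49 lysosomal genes, by class, for Bach2 KO minus WT (left) and DKO minus WT (right), with standard errors; filled points have a limma adjusted p under 0.05. Pump genes hold 5 and 6 filled points, all to the right; the small leftward differences of Ctsa, Ctsd, Ctsh, Ctss, Gla, Lamp1 and Man2b1 in Bach2 KO mice turn to 0 or above with quantile normalization.

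Among the 12 proteases, Ctsf (cathepsin F, a cysteine protease) fell in Bach2 KO and in DKO mice. Its values were 2.09, 2.32 and 1.90 in the WT, 1.92, 2.26 and 1.65 in the Bach1 KO, -0.24, -0.35 and 0.23 in the Bach2 KO and -2.23, -1.47 and -0.88 in the DKO mice. The WT and Bach1 KO mice overlapped, every Bach2 KO mouse lay below them, and every DKO mouse lay below every Bach2 KO mouse. The difference was -2.22 ± 0.35 in Bach2 KO mice, or 4.67-fold lower (limma adjusted p = 0.000602), and -3.63 ± 0.35 in DKO mice, or 12.4-fold lower (limma adjusted p = 1.24e-05). Both of these calls against WT held under every alternative run, 29 and 28 of them, whereas the call of DKO against Bach2 KO mice (limma adjusted p = 0.0488) was lost under 19 of 28.

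Lgmn, the asparaginyl endopeptidase legumain that cleaves other cathepsin precursors, was the 1 gene of the 12 listed proteases called higher in Bach2 KO mice with the 75th percentile (4 with quantile normalization or no scaling, none with the array median). Its values were 5.42, 5.98 and 5.81 in WT, 5.51, 5.46 and 5.41 in Bach1 KO, 6.26, 6.52 and 6.44 in Bach2 KO and 6.32, 6.63 and 6.95 in DKO mice. Every Bach2 KO and DKO mouse lay above every WT mouse. The rise was 0.67 ± 0.21 (1.59-fold, limma adjusted p = 0.0265) in Bach2 KO and 0.89 ± 0.21 (1.86-fold, limma adjusted p = 0.00824) in DKO mice. The first of these calls was lost with the array median (0.44, limma adjusted p = 0.157) and without WT replicate 1, WT replicate 3, Bach2 KO replicate 2 or Bach2 KO replicate 3 (limma adjusted p up to 0.113). The second held under all 28 alternatives.

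The other protease calls were small decreases whose direction depended on the scaling. Ctsh, the aminopeptidase cathepsin H, had 7.34, 7.32 and 7.20 in WT, 7.17, 6.83 and 7.10 in Bach1 KO, 6.31, 6.63 and 6.20 in Bach2 KO and 6.22, 6.16 and 6.79 in DKO mice. All Bach2 KO and DKO values lay below all of WT. Its difference in Bach2 KO mice was -0.91 ± 0.21 (limma adjusted p = 0.00612), but 0.07 with quantile normalization and -0.22 with no scaling, neither called. In DKO mice it was -0.90 ± 0.21 (limma adjusted p = 0.00791), and -0.30 and -0.46, uncalled, under those scalings. Ctsa, the protective protein that shields the enzymes of Glb1 and Neu1, had 7.44, 6.93 and 7.12 in WT, 6.95, 6.18 and 6.85 in Bach1 KO, 6.36, 6.34 and 6.27 in Bach2 KO and 6.54, 6.80 and 7.54 in DKO mice. The Bach2 KO mice were below the WT mice, and the DKO mice overlapped both Bach1 KO and WT. The Bach2 KO difference of -0.84 ± 0.28 (limma adjusted p = 0.034) became 0.12 with quantile normalization. Leaving out WT replicate 1, WT replicate 3 or any 1 Bach2 KO replicate ended the call (limma adjusted p up to 0.12).

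Ctsd, the major aspartic protease cathepsin D, had 7.90, 7.64 and 7.89 in WT, 7.58, 7.14 and 7.91 in Bach1 KO, 7.13, 7.20 and 6.83 in Bach2 KO and 6.93, 7.47 and 7.60 in DKO mice, and its brightest probe gave -0.76 ± 0.24 in Bach2 KO mice (limma adjusted p = 0.0268). A second Ctsd probe, also well above background on all 12 arrays, went the other way, by 2.63 ± 0.53 in Bach2 KO (limma adjusted p = 0.0045) and 2.31 ± 0.53 in DKO mice (limma adjusted p = 0.0116), and quantile normalization turned the first probe to 0.11, so no direction is given for Ctsd. Its call was also lost without WT replicate 1, WT replicate 3, Bach2 KO replicate 1 or Bach2 KO replicate 3 (limma adjusted p up to 0.0934). Ctss, cathepsin S, which trims the invariant chain of MHC class II, differed by -0.70 ± 0.24 in Bach2 KO mice (limma adjusted p = 0.0417), 0.19 with quantile normalization. That call was lost without any 1 WT or Bach2 KO replicate, without Bach1 KO replicate 1 or without DKO replicate 2 (limma adjusted p up to 0.122). The 6 proteases without a call in Bach2 KO mice (Ctsb, Ctsc, Ctsk, Ctsl, Ctsz and the tripeptidyl peptidase Tpp1) ranged from -0.61 to 0.27.

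The 7 lipid hydrolases and cofactors held the member with the largest difference in Bach2 KO mice. Gm2a, the activator protein that presents ganglioside GM2 to hexosaminidase, had 0.83, 2.15 and -0.13 in WT, 0.66, 2.06 and -0.04 in Bach1 KO, 3.45, 3.26 and 4.12 in Bach2 KO and 1.65, 2.21 and 1.40 in DKO mice. The Bach2 KO mice lay above all the others, and the DKO mice overlapped WT and Bach1 KO. Gm2a rose by 2.66 ± 0.60 in Bach2 KO mice, 6.33-fold (limma adjusted p = 0.00555), and was called under 28 of 29 alternatives. In DKO mice the difference of 0.80 ± 0.60 from WT was not called (limma adjusted p = 0.334). DKO minus Bach2 KO was -1.86 ± 0.60 without a call (limma adjusted p = 0.107), and the interaction of the 2 deletions was not called (-1.81 ± 0.85, limma adjusted p = 0.347). A higher level in Bach2 KO than in DKO mice is therefore not established by these tests.

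Ppt1, a thioesterase that removes palmitate from proteins, had 3.84, 3.67 and 3.36 in WT, 3.73, 3.72 and 3.69 in Bach1 KO, 2.38, 2.51 and 3.14 in Bach2 KO and 2.09, 2.23 and 3.04 in DKO mice. All mice that lacked Bach2 lay below all that had it. The differences of -0.95 ± 0.29 (limma adjusted p = 0.0238) and -1.17 ± 0.29 (limma adjusted p = 0.011) kept their sign under all 4 scalings. In Bach2 KO mice the call was lost with quantile normalization (-0.55), with no scaling (-0.26) and without WT replicate 1, Bach2 KO replicate 1 or Bach2 KO replicate 2 (limma adjusted p up to 0.0914). In DKO mice it was lost with no scaling (-0.73) and without DKO replicate 1 (limma adjusted p = 0.0522). The other 5, which include the acid lipase Lipa, acid ceramidase Asah1, the sphingomyelinase Smpd1, the saposin precursor Psap and progranulin (Grn), ranged from -0.68 to 0.86 in Bach2 KO mice, none called.

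**Figure D2:**
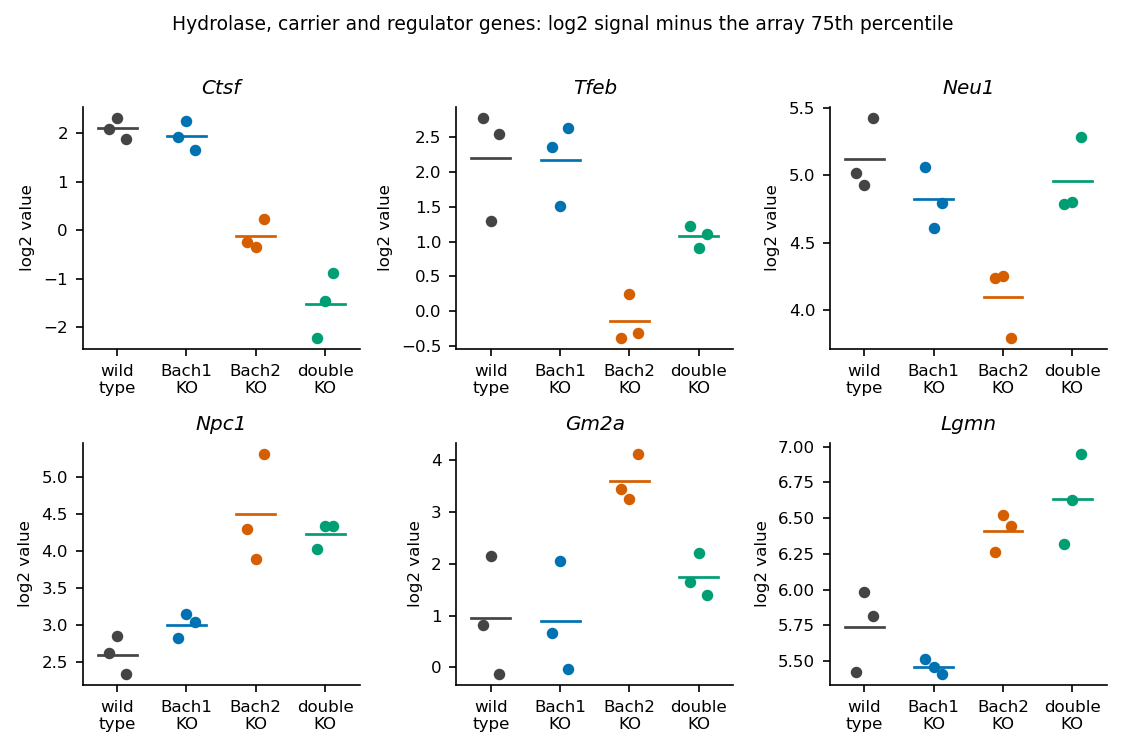
Log2 signal minus the array's 75th percentile (y axis) for 6 lysosomal genes in each of 12 mice by genotype (x axis); points are mice and lines are means of 3. Ctsf lies below and Npc1 above all WT and Bach1 KO mice in every Bach2 KO and DKO mouse, Tfeb is lowest and Gm2a highest in the 3 Bach2 KO mice, and neither of these 2 genes is called in DKO against WT or Bach2 KO mice. Neu1 loses its call with no scaling and Lgmn with the array median.

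Of the 9 sugar hydrolases and sulfatases 1 was called higher and 3 lower in Bach2 KO mice, beside 12.4% and 24.7% of all genes. The split of this class, higher to lower, was 1 to 3 with the array median, 3 to 1 with quantile normalization and 1 to 0 with no scaling. Glb1, the lysosomal beta-galactosidase, had 2.41, 3.24 and 2.47 in WT, 2.63, 3.34 and 2.0 in Bach1 KO, 3.52, 3.80 and 3.99 in Bach2 KO and 3.15, 3.25 and 3.6 in DKO mice. The Bach2 KO mice were above all WT mice, whereas the DKO mice overlapped them. The rise of 1.07 ± 0.34 (2.09-fold, limma adjusted p = 0.0298) was called under all 4 scalings but was lost without WT replicate 1, WT replicate 3, Bach2 KO replicate 2 or Bach2 KO replicate 3 (limma adjusted p up to 0.102). Neu1, the sialidase of the same complex, had 5.02, 4.92 and 5.42 in WT, 5.06, 4.61 and 4.79 in Bach1 KO, 4.24, 4.26 and 3.79 in Bach2 KO and 4.79, 4.80 and 5.28 in DKO mice. Only the Bach2 KO mice were apart, below every mouse of the other genotypes. Its difference from WT was -1.02 ± 0.23 in Bach2 KO mice (2.03-fold, limma adjusted p = 0.00579) and -0.17 ± 0.23 in DKO mice (limma adjusted p = 0.615). The first kept its sign under all 4 scalings and its call under all but no scaling (-0.33, limma adjusted p = 0.312). DKO minus Bach2 KO was 0.86 ± 0.23 (limma adjusted p = 0.0674) and the interaction 1.16 ± 0.33 (limma adjusted p = 0.164), the lowest adjusted p of any listed gene in that test, and neither was called with the 75th percentile. With quantile normalization DKO minus Bach2 KO was called for Neu1 (0.69, limma adjusted p = 0.026), and the difference of DKO from WT mice, uncalled under all 4 scalings, turned to 0.26.

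Man2b1, an alpha-mannosidase, had 6.48, 6.15 and 6.37 in WT, 6.47, 6.11 and 6.11 in Bach1 KO, 5.57, 5.42 and 5.34 in Bach2 KO and 5.35, 5.35 and 5.94 in DKO mice. Gla, the alpha-galactosidase deficient in Fabry disease, had 7.04, 6.58 and 6.58 in WT, 6.72, 6.25 and 7.13 in Bach1 KO, 5.73, 6.07 and 5.87 in Bach2 KO and 6.08, 6.40 and 6.85 in DKO mice. For both genes the Bach2 KO mice lay below all WT mice. The DKO mice did so for Man2b1 and overlapped WT for Gla. The Bach2 KO difference was -0.89 ± 0.21 for Man2b1 (limma adjusted p = 0.00673) and 0.00 with quantile normalization. It was -0.84 ± 0.27 for Gla (limma adjusted p = 0.0281) and 0.12 with quantile normalization, and the Gla call was lost without WT replicate 1, Bach2 KO replicate 1 or Bach2 KO replicate 3 (limma adjusted p up to 0.108). Man2b1 in DKO mice differed by -0.79 ± 0.21 (limma adjusted p = 0.0158), uncalled at -0.23 with quantile normalization, at -0.35 with no scaling and without WT replicate 1, DKO replicate 1 or DKO replicate 2 (limma adjusted p up to 0.0662). The other 5 genes, Hexa, Gaa, Gusb and the sulfatases Arsa and Arsb, ranged from -0.81 to 0.06 in Bach2 KO mice. A second Gaa probe was well above background on 10 of 12 arrays. It gave 1.19 ± 0.45 in Bach2 KO mice (limma adjusted p = 0.0959), uncalled, where the first gave -0.24. In DKO mice it gave 1.59 ± 0.45 (limma adjusted p = 0.0371), beside 0.54 for the first.

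Of the cholesterol carriers, Npc1 rose without Bach2. Npc1, the membrane protein that moves cholesterol out of the lysosome, had 2.61, 2.85 and 2.33 in WT, 2.83, 3.15 and 3.03 in Bach1 KO, 4.30, 3.89 and 5.32 in Bach2 KO and 4.02, 4.34 and 4.34 in DKO mice. All mice that lacked Bach2 lay above all that had it. The rise was 1.91 ± 0.32 (3.75-fold, limma adjusted p = 0.000999) in Bach2 KO and 1.64 ± 0.32 (3.11-fold, limma adjusted p = 0.0028) in DKO mice, called under every alternative run. Npc2, its soluble partner that hands cholesterol over in the lumen, differed by -0.53 ± 0.30 in Bach2 KO mice (limma adjusted p = 0.191, uncalled) with the 75th percentile and was called higher with quantile normalization (0.41, limma adjusted p = 0.0322), so no direction is given for it.

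Among the other membrane proteins, Scarb2 (LIMP-2, the carrier of glucocerebrosidase) had 5.15, 4.79 and 4.54 in WT, 4.98, 4.57 and 4.79 in Bach1 KO, 3.98, 4.09 and 4.15 in Bach2 KO and 4.02, 4.15 and 4.76 in DKO mice. Lamp1, a structural glycoprotein of the lysosomal membrane, had 7.89, 7.52 and 7.70 in WT, 7.44, 6.88 and 7.59 in Bach1 KO, 6.97, 7.14 and 6.87 in Bach2 KO and 7.00, 7.5 and 7.95 in DKO mice. The Bach2 KO mice were below the WT mice for both, and the DKO mice overlapped WT for both. Scarb2 differed by -0.75 ± 0.24 (limma adjusted p = 0.0294), which kept its sign but not its call with quantile normalization (-0.19) and no scaling (-0.06). Lamp1 differed by -0.71 ± 0.26 (limma adjusted p = 0.0473), 0.17 with quantile normalization. Leaving out WT replicate 1 or any 1 Bach2 KO replicate ended both calls, as did WT replicate 3, Bach1 KO replicate 1 or DKO replicate 2 for Lamp1 (limma adjusted p up to 0.119 for Scarb2 and 0.141 for Lamp1). The calcium channel Mcoln1, a TFEB target in other cells, had 5.03, 4.32 and 5.71 in WT, 5.18, 4.77 and 4.98 in Bach1 KO, 5.09, 4.65 and 5.21 in Bach2 KO and 4.57, 4.79 and 5.47 in DKO mice. All 4 genotypes overlapped, and the Bach2 KO difference was -0.04 (95% interval -0.79 to 0.71). A second Lamp2 probe was higher in Bach2 KO (1.40 ± 0.40, limma adjusted p = 0.0308) and DKO mice (1.54 ± 0.40, limma adjusted p = 0.025), where the brightest Lamp2 probe gave 0.00 and -0.17.

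Among the 12 listed genes of the proton pump, calls went in 1 direction. Of 10 further pump subunits, outside the 49 genes, 1 was called higher and 4 lower in Bach2 KO mice. Of the 12, 5 rose and none fell in Bach2 KO mice (median 0.52, 12.4% of all genes higher and 24.7% lower). In DKO mice 6 rose and none fell (median 0.80, 10.6% of all genes higher and 16.6% lower). The 5 called in Bach2 KO mice had WT means of 1.54 to 5.93, beside 4.59 to 7.09 for the 7 not called. The part of probe signal in these calls was not tested. Under the other 3 scalings 4 to 8 were called higher in Bach2 KO mice and 5 to 8 in DKO mice, with none lower. The number of all genes called higher also moved with the scaling. Of 23120 genes in Bach2 KO mice it was 2360 with the array median, 3624 with quantile normalization and 4778 with no scaling. In DKO mice it was 2150, 2798 and 3137 in that order. Atp6v1h, a V1 subunit that regulates coupling, had 2.19, 1.60 and 0.82 in WT, 1.75, 1.48 and 1.37 in Bach1 KO, 3.59, 3.76 and 4.75 in Bach2 KO and 3.53, 4.23 and 4.11 in DKO mice. Atp6v1b2, the V1 subunit B isoform that forms part of the nucleotide sites, had 1.94, 2.27 and 0.53 in WT, 1.92, 2.64 and 1.49 in Bach1 KO, 3.63, 3.40 and 4.42 in Bach2 KO and 3.74, 4.04 and 4.33 in DKO mice. Atp6v1c1, the V1 subunit C that helps join the sectors, had 4.0, 4.02 and 3.71 in WT, 4.0, 3.89 and 3.82 in Bach1 KO, 5.01, 5.09 and 5.09 in Bach2 KO and 4.80, 5.33 and 5.27 in DKO mice. For all 3 genes, every mouse without Bach2 lay above every WT and Bach1 KO mouse. The rises in Bach2 KO mice were 2.5 ± 0.39 for Atp6v1h (5.65-fold, limma adjusted p = 0.000567), 2.23 ± 0.46 for Atp6v1b2 (4.70-fold, limma adjusted p = 0.00332) and 1.15 ± 0.20 for Atp6v1c1 (2.23-fold, limma adjusted p = 0.00103). In DKO mice they were 2.42, 2.45 and 1.22. These calls held under every alternative run.

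Atp6ap1, the accessory protein Ac45 that assists assembly and targeting of the pump, had 3.12, 4.25 and 2.57 in WT, 3.58, 4.48 and 2.93 in Bach1 KO, 5.06, 4.72 and 5.43 in Bach2 KO and 4.33, 4.98 and 5.14 in DKO mice. All mice without Bach2 lay above all WT mice, but 1 Bach1 KO mouse lay above the lowest DKO mouse. The rise was 1.76 ± 0.46 in Bach2 KO mice (3.38-fold, limma adjusted p = 0.012), lost without WT replicate 3 (limma adjusted p = 0.0509), and 1.5 ± 0.46 in DKO mice (limma adjusted p = 0.0314), lost without WT replicate 1, WT replicate 3, DKO replicate 2 or DKO replicate 3 (limma adjusted p up to 0.121). A second probe rose by 2.36 ± 0.60 in Bach2 KO mice (limma adjusted p = 0.0159). Atp6v0c, the proteolipid of the V0 ring, had 5.84, 5.91 and 6.04 in WT and 6.70, 6.77 and 6.49 in Bach2 KO mice, a rise of 0.72 ± 0.20 (limma adjusted p = 0.0162), and rose by 0.80 ± 0.20 in DKO mice (limma adjusted p = 0.0124). The Bach2 KO call was lost with the array median (0.49) and without WT replicate 1, Bach2 KO replicate 1 or Bach2 KO replicate 2 (limma adjusted p up to 0.0574), and the DKO call without DKO replicate 2 (limma adjusted p = 0.0597). The remaining 7 pump genes (Atp6v0a1, Atp6v0b, Atp6v0d1, Atp6v0d2, Atp6v1a, Atp6v1d and Atp6v1e1) ranged from -0.61 to 0.78 in Bach2 KO mice without a call. A second probe of Atp6v0d2, a d isoform found in few cell types, was higher (0.99 ± 0.30, limma adjusted p = 0.0353) where the brightest gave -0.61.

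**Figure D3:**
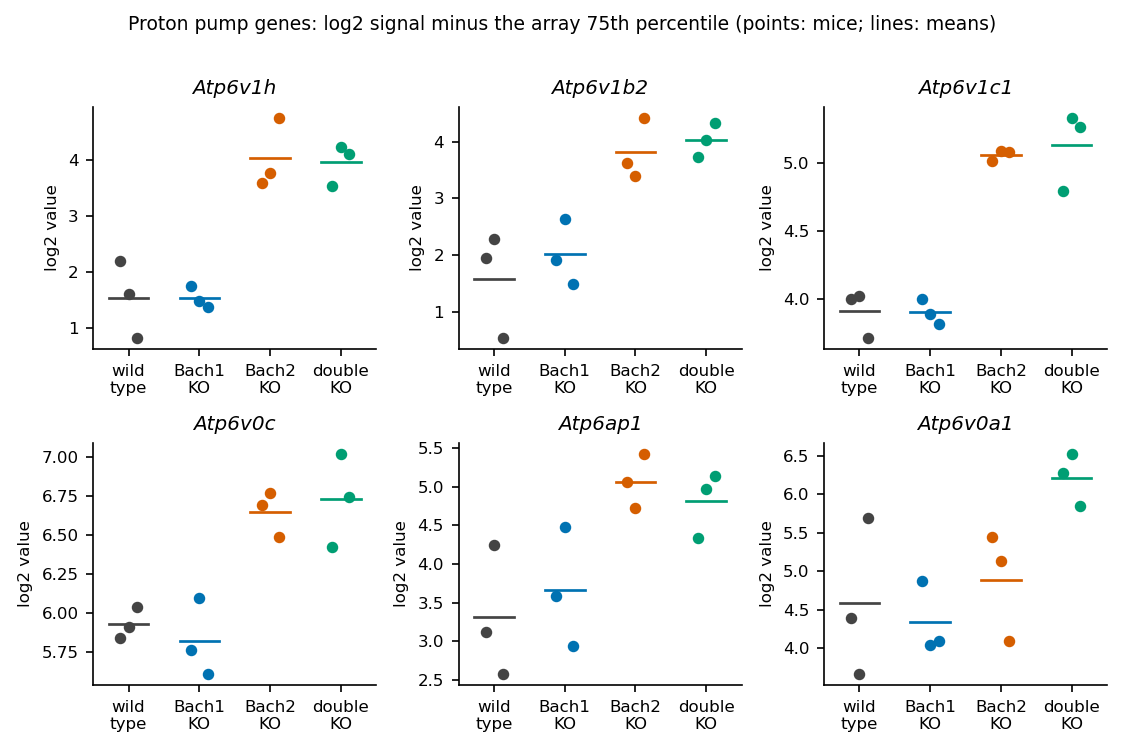
Log2 signal minus the array's 75th percentile (y axis) for 6 proton pump genes in each of 12 mice by genotype (x axis); points are mice and lines are means of 3. Atp6v1h, Atp6v1b2 and Atp6v1c1 lie higher in all 6 mice without Bach2 than in the other 6; Atp6v0a1 is called in DKO mice only, and not with the array median (limma adjusted p = 0.0521).

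Of the 2 regulators, Tfeb, the main activator of lysosomal genes, fell in Bach2 KO mice. Its values were 2.78, 1.3 and 2.54 in WT, 2.36, 1.51 and 2.63 in Bach1 KO, -0.39, 0.25 and -0.31 in Bach2 KO and 1.22, 0.90 and 1.11 in DKO mice. Every Bach2 KO mouse lay below every other mouse, and the DKO mice lay between, just below the lowest WT mouse. The difference in Bach2 KO mice was -2.35 ± 0.41, 5.11-fold (limma adjusted p = 0.00118), and was called under all 29 alternatives. In DKO mice it was -1.13 ± 0.41 and missed the threshold (limma adjusted p = 0.0589). DKO minus Bach2 KO was 1.23 ± 0.41 (limma adjusted p = 0.116) and the interaction 1.26 ± 0.57 (limma adjusted p = 0.337), neither called. Tfe3, its relative, had 3.24, 2.64 and 3.72 in WT, 3.38, 2.77 and 3.1 in Bach1 KO, 2.94, 2.62 and 2.28 in Bach2 KO and 4.0, 3.57 and 3.59 in DKO mice. Bach2 KO mice overlapped WT at its low end, and no Tfe3 difference was called with the 75th percentile (-0.59 ± 0.30 in Bach2 KO and 0.52 ± 0.30 in DKO mice against WT; limma adjusted p = 0.149 and 0.219). With quantile normalization Tfe3 was called higher in DKO mice against WT (0.82, limma adjusted p = 0.0392), Bach1 KO (0.85, limma adjusted p = 0.0342) and Bach2 KO mice (1.01, limma adjusted p = 0.0473). The Bach2 KO difference from WT turned to 0.10, uncalled, with no scaling.

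**Figure D4:**
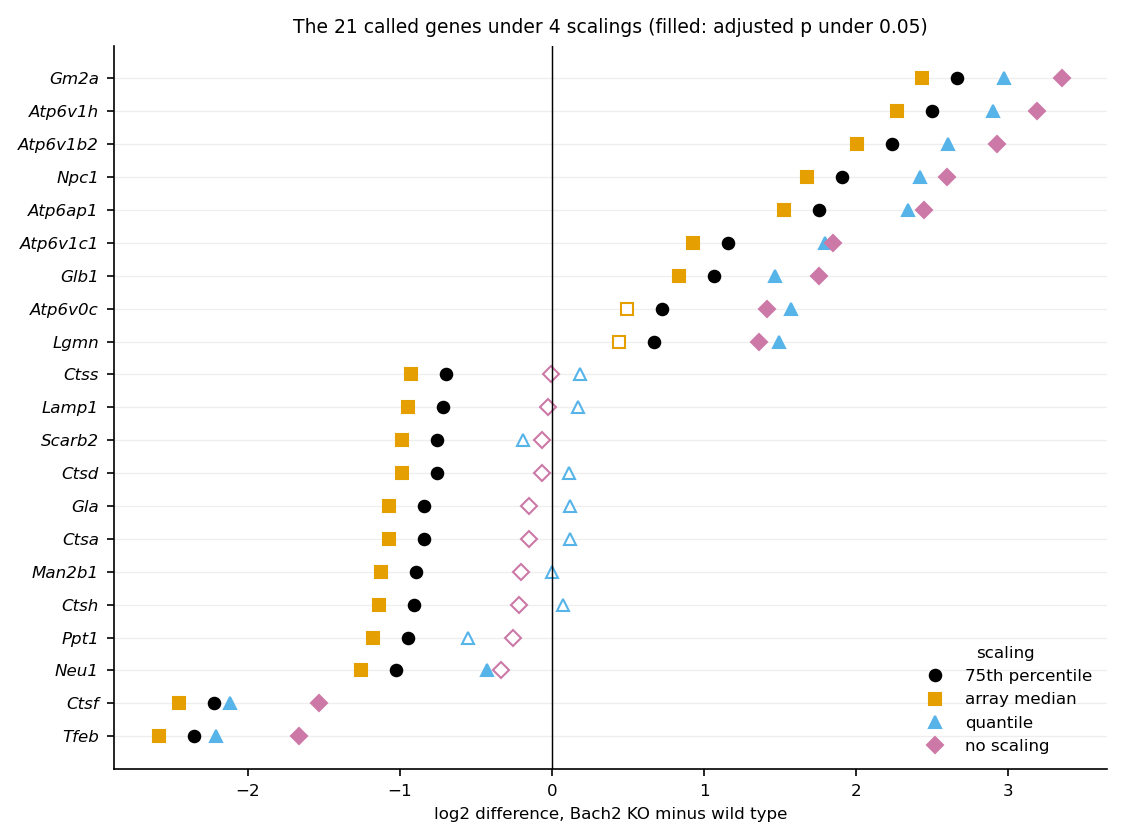
Bach2 KO minus WT log2 difference (x axis) of the 21 lysosomal genes called with the 75th percentile (y axis), under 4 scalings of the arrays (symbols); filled symbols have a limma adjusted p under 0.05. The 9 genes at the top stay above 0 under all 4 scalings, Ctsf and Tfeb stay below 0 and called, and 7 genes in between cross 0 with quantile normalization.

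Loss of Bach1 alone gave no call among the 49 genes, where 0.0606% of all genes were called. At an unadjusted p under 0.05, 1 of 49 differed, Psap (-0.50 ± 0.21), beside 5.3% of all genes, and the lowest limma adjusted p of any listed gene was 0.881. The differences of the 49 ran from -0.51 (Ctsa) to 0.43 (Atp6v1b2), with a median of -0.12 beside -0.07 over all genes.

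In DKO against WT mice 12 of 49 were called, 8 higher and 4 lower, where 10.6% of all genes were higher and 16.6% lower. With the array median the split was 7 to 4, with quantile normalization 22 to 2 and with no scaling 16 to 1, and over all genes the higher share of calls was 38.9% with the 75th percentile and 32.4%, 45.7% and 63% in that order. The higher genes were Lgmn, Npc1 and 6 of the pump, and the lower ones Ctsf, Ctsh, Ppt1 and Man2b1. Of the 21 genes called in Bach2 KO mice 11 were also called in DKO mice, all in the same direction, but both comparisons share the WT mice. Over all 23120 genes 8585 and 6288 were called in these comparisons. How many were called in both was not counted, so 11 of 21 is a description only. Atp6v0a1, the V0 subunit a isoform of most tissues, was called in DKO mice and not in Bach2 KO mice. It had 4.39, 3.67 and 5.70 in WT, 4.87, 4.04 and 4.10 in Bach1 KO, 5.45, 5.14 and 4.09 in Bach2 KO and 6.28, 6.52 and 5.85 in DKO mice. Only the DKO mice lay above all the others. The rise was 1.63 ± 0.49 (3.09-fold, limma adjusted p = 0.0291), lost without WT replicate 1, WT replicate 2, DKO replicate 1 or DKO replicate 2 (limma adjusted p up to 0.0931). DKO minus Bach2 KO was 1.32 ± 0.49 (limma adjusted p = 0.151), so a difference between these 2 genotypes was not shown.

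The direct comparison of DKO with Bach2 KO mice called 1 of 49 genes, Ctsf, lower by 1.41 ± 0.35 (2.65-fold, limma adjusted p = 0.0488), where 3.56% of all genes were called. That call sat at the threshold and was lost under 19 of 28 alternatives, among them the array median, no scaling, and leaving out any 1 array other than WT replicate 3 or DKO replicate 3 (limma adjusted p up to 0.175). At an unadjusted p under 0.05, 10 of 49 differed, beside 21.3% of all genes. In DKO against Bach1 KO mice, where loss of Bach2 is read on a background without Bach1, 13 were called, 9 higher and 4 lower, beside 10.9% and 15.3% of all genes. With the array median this split was 9 to 2, with quantile normalization 19 to 2 and with no scaling 11 to 1. The 9 were Lgmn, Tpp1, Psap, Npc1, Atp6v0a1, Atp6v0c, Atp6v1b2, Atp6v1c1 and Atp6v1h, all called under the 4 scalings, and Ctsf (-3.47 ± 0.35, limma adjusted p = 1.93e-05) was the 1 lower gene so called. Tpp1, a tripeptidyl peptidase, had 2.20, 2.49 and 2.31 in Bach1 KO and 3.39, 3.84 and 3.17 in DKO mice, a rise of 1.14 ± 0.29 (2.20-fold, limma adjusted p = 0.0125). Psap, the saposin precursor, had 6.13, 5.56 and 6.20 in Bach1 KO and 6.64, 7.08 and 7.19 in DKO mice, a rise of 1.01 ± 0.21 (2.01-fold, limma adjusted p = 0.00493). The 2 genotypes did not overlap for either gene, and neither gene was called in DKO against WT mice with the 75th percentile (0.72 for Tpp1 and 0.51 for Psap). Both were called there with quantile normalization (0.94 and 1.04; limma adjusted p = 0.0431 and 0.000146) and with no scaling (1.16 and 0.94; limma adjusted p = 0.0375 and 0.00135). The Tpp1 call was lost without DKO replicate 2 (limma adjusted p = 0.0566), that of Npc1 without Bach1 KO replicate 1 or DKO replicate 2 (up to 0.0558), and that of Atp6v0a1 without Bach1 KO replicate 3 or DKO replicate 2 (up to 0.0572). The decreases of Ctsh (-0.64) and Man2b1 (-0.68) were lost without 6 and 4 of the single arrays, Bach1 KO replicates 1 and 3 and DKO replicates 1 and 2 among them (limma adjusted p up to 0.147 and 0.131), and Ppt1 differed by -1.26 (limma adjusted p = 0.00759). This comparison shares the DKO mice with the one against WT. The interaction, which asks whether loss of Bach1 acts differently with and without Bach2, called none of the 49, where 0.675% of all genes were called. At an unadjusted p under 0.05 it had 9 of 49, beside 14.8% of all genes.

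Other lysosomal genes were counted from lists of the same pathway. Counts with the 75th percentile are to be read against the shares of all genes called given above (12.4% higher and 24.7% lower in Bach2 KO, 10.6% and 16.6% in DKO mice). With quantile normalization 7863 of 23120 genes were called in Bach2 KO mice, 3624 of them higher, and 6128 in DKO mice, 2798 of them higher. With no scaling 6944 were called in Bach2 KO mice, 4778 of them higher, and 4981 in DKO mice, 3137 of them higher. Of 28 further hydrolases 6 were higher and 8 lower in Bach2 KO mice (11 and 4 with quantile normalization, 10 and 1 with no scaling), and 7 were higher and 8 lower in DKO mice (8 and 4, 8 and 5). Plbd1, a phospholipase B-like protein, rose by 7.56 ± 1.01 (limma adjusted p = 0.000202) with a wide spread among WT mice (SD 2.51), and the aspartic protease Ctse, whose probe did not exceed background in WT mice, was at least 4.45-fold higher (limma adjusted p = 0.00243). The phospholipase Pla2g15 fell by 1.52 (limma adjusted p = 0.0015), called under all 4 scalings. Fuca1 (-1.09) and Lyz1 (-1.12) were called lower with the 75th percentile and not with quantile normalization. Hpse, the heparan sulfate cleaving heparanase, was the 1 gene of these lists called in Bach1 KO mice. In these mice it fell by 4.95 on the log2 scale (SE 0.55, limma adjusted p = 0.00534), to a signal well above background on 1 of 3 arrays, and rose by 5.35 ± 0.55 in Bach2 KO (limma adjusted p = 3.11e-05) and by 5.11 in DKO mice.

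Of 24 further membrane proteins tested 9 were higher and 7 lower in Bach2 KO mice (12 and 2 with quantile normalization, 14 and 0 with no scaling), and 11 were higher and 4 lower in DKO mice (11 and 1, 11 and 0). The channel Mcoln2 rose by 2.71 (limma adjusted p = 9.27e-06), the nucleoside carrier Slc29a3 by 5.26 (limma adjusted p = 2.06e-05) and the metal ion carrier Slc11a1 by 3.30 (limma adjusted p = 0.000501), each called under all 4 scalings. Laptm5 (-1.22), Cd164 (-1.0) and Slc36a1 (-0.83) were called lower with the 75th percentile and not with no scaling, and the Slc36a1 call was also lost without Bach2 KO replicate 3 (limma adjusted p = 0.0722). Of 10 further pump subunits 1 was higher and 4 lower in Bach2 KO mice (2 and 2 with quantile normalization, 2 and 1 with no scaling), and 1 was lower in DKO mice (2 higher and 1 lower under both of these). Atp6v0e2, a V0 subunit e isoform, was not well above background on any Bach2 KO or DKO array and was at least 35.1-fold lower in Bach2 KO (limma adjusted p = 0.00584) and at least 38.4-fold lower in DKO mice (limma adjusted p = 0.0041). Atp6v0e (-1.0) and Atp6v1f (-1.25) were called lower with the 75th percentile but not with quantile normalization (-0.02 and -0.29), and Tcirg1, the a3 subunit, was higher by 0.78 (limma adjusted p = 0.0492), uncalled with the array median and without any 1 array of 8, all 3 of Bach2 KO among them (limma adjusted p up to 0.157). The Atp6v1f call was lost without WT replicate 1, WT replicate 3 or Bach2 KO replicate 3 (limma adjusted p up to 0.0559).

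Of 12 sorting genes 3 were higher and 3 lower in Bach2 KO mice (4 and 1 with quantile normalization, 3 and 0 with no scaling), and 2 were higher and 1 lower in DKO mice. Igf2r, the large mannose 6-phosphate receptor that carries hydrolases to lysosomes, rose by 7.24 (limma adjusted p = 2.48e-05) in Bach2 KO and 8.15 in DKO mice, Gga2 by 1.51 and the retromer subunit Vps35 by 1.63. Sort1 fell by 1.3 (limma adjusted p = 0.000814) and the genes Gnptab and Gnptg by 1.06 and 0.93, calls that these 3 lost with no scaling. The Gnptab call was also lost without WT replicate 1, WT replicate 3 or Bach2 KO replicate 3 (limma adjusted p up to 0.0731), and the Vps35 call without Bach2 KO replicate 3 (limma adjusted p = 0.0576). Of 19 genes of biogenesis and autophagy 6 were higher, among them the autophagy receptor Sqstm1 (1.65) and Wipi1 (3.31), and 5 lower, among them Lamtor4 (-2.30), Lamtor2 (-1.65) and Map1lc3b (-1.10), the last uncalled with quantile normalization (10 and 3 with quantile normalization, 9 and 3 with no scaling; 4 and 3 in DKO mice, 7 and 1, 6 and 1). Of 6 cathepsin inhibitors tested 1 was higher and 2 lower in Bach2 KO mice (1 and 0 with quantile normalization, 2 and 0 with no scaling), and 3 were higher and 1 lower in DKO mice. Cst7, cystatin F, which inhibits lysosomal cysteine cathepsins, did not exceed background in WT mice and was at least 167-fold higher in Bach2 KO (limma adjusted p = 9.18e-07) and at least 199-fold higher in DKO mice (limma adjusted p = 4.58e-07). Cst3 (-0.81) and Cstb (-0.98) were called lower with the 75th percentile and not with quantile normalization, where Cst3 was at 0.13. Both calls were also lost without WT replicate 1 or Bach2 KO replicate 3, and Cstb without WT replicate 3 (limma adjusted p up to 0.0526 and 0.103).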

How the data were processed

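The deposited scanner files hold, per the file headers, 1-colour Agilent intensity values (Cy3) from Feature Extraction 10.7.3.1, already background-subtracted (the submitters' processing notes name version 9.1). The deposited series matrix holds the authors' log2 values, scaled to the 75th percentile and centred on each probe's median, with column medians from -0.25 to 0.25; they correlated with the scaled intensity values at r of 0.999925 or more and served as an alternative. No per-sample column was left unused (0). From the intensities, outlier and control spots were left out, spots of a probe averaged, log2 values scaled to each array's 75th percentile, and probes kept that were well above background on all 3 arrays of a genotype; the brightest probe stood for a gene. R 4.3.3, limma 3.58.1 (lmFit, eBayes with a trend, 4 genotype means, 8 residual degrees of freedom) and Benjamini-Hochberg adjustment over 23120 genes or transcripts (13812 named) gave the tests. The fit was tested on simulated data with the spread of the real values. Of 200 genes given a log2 rise or fall of 2 in Bach2 KO mice, 55.5% were called, with 7 false calls. Only these 200 of 22578 genes were changed, whereas 8585 of 23120 were called in the real comparison. The adjustment for many tests was thus stricter in the simulation, and 55.5% is not the share recovered in the real comparison. A missing call does not show that a gene was unchanged. Array numbers limit the precision. Summed marker levels are sums of linear scaled signals. An "at least" fold sets the bright group's mean against the lowest signal well above background.

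The members, classes and lists were chosen with earlier results of these data known. Values on every array are given for Tfeb, Tfe3 and Mcoln1, for up to 4 genes per class and direction with the largest difference among those called in Bach2 KO against WT mice, and for genes called in the smaller comparisons; up to 3 genes per direction and list by adjusted p are named from other lists. Ctss, Atp6v0c, Atp6v0a1, Npc2 and second probes were described in addition, chosen after their values were seen. The labels do not say that replicate numbers pair mice. Deviations of same-numbered arrays correlated at -0.14 to 0.39 (median 0.03), and those of differently numbered arrays at -0.27 to 0.20 (median -0.05). These values cannot tell whether same-numbered arrays shared a batch. Normexp on mean signals, as planned, was replaced by median signals, the column used here. Other alternatives were other scalings, filters, probe rules, limma settings, blocks, slide 1 alone and leaving out each array. No coordinates of the array probes were used here; promoter windows came from RefSeq.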

Additional observations from a re-analysis of the deposited data

Results flagged for a closer look

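Hpse, the heparanase gene, had a called interaction of the 2 deletions. It was 4.71 ± 0.78 on the log2 scale (limma adjusted p = 0.019): the Bach1 KO minus WT difference was -4.95, and the DKO minus Bach2 KO difference was -0.24. Group means were -1.38 in WT, -6.32 in Bach1 KO, 3.97 in Bach2 KO and 3.73 in DKO mice (n = 3 each). In Bach1 KO mice the signal was well above background on 1 of 3 arrays, so -4.95 and 4.71 rest on signals near background and are not exact sizes. The interaction was called under 18 of 26 alternatives. It was lost with the series matrix values, with its probes averaged, at an adjusted p under 0.01, without Bach2 KO replicate 1 or 3, without DKO replicate 1 or 2, and when the WT and Bach1 KO arrays numbered 3 were dropped together (limma adjusted p up to 0.195).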

How the results depend on the processing

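Counts of the 49 genes called are given in this paragraph, and causes of changes were not tested unless stated. In Bach2 KO against WT mice 21 became 11 (5 higher, 6 lower) on slide 1 alone, which leaves out Bach2 KO replicate 3. At an adjusted p under 0.01, 21 became 10. Fewer arrays or a stricter threshold act by construction, and slide 1 alone cannot separate the slide from fewer arrays. With slide as a random block the count was 21. With 1 array left out it was 11 to 25, 11 without WT replicate 1 and 13 without any 1 Bach2 KO replicate. In DKO against WT mice 12 became 24 with quantile normalization, 19 with array quality weights and 7 at an adjusted p under 0.01, and 8 to 14 with 1 array left out. In DKO against Bach1 KO mice 13 became 21 with quantile normalization and 8 at an adjusted p under 0.01, and 8 to 16 with 1 array left out, 8 without DKO replicate 2. In DKO against Bach2 KO mice 1 became 0 with the array median, no scaling, no filter on dim probes, outlier spots kept, eBayes without a trend, slide as a random block or an adjusted p under 0.01; it became 3 with quantile normalization, with normexp on median signals (chosen after seeing the data) or with the 2 groups alone, 7 with array quality weights, 2 when the WT and Bach1 KO arrays numbered 3 were dropped together (chosen after seeing the data), and 0 to 2 with 1 array left out. Bach1 KO against WT and the interaction had 0 with 1 array left out (0 to 0). With the replicate block the counts were 20 (10 higher, 10 lower) in Bach2 KO against WT and 14 in DKO against WT mice. They were 13 in DKO against Bach1 KO and 0 in DKO against Bach2 KO mice. The labels do not say that the numbers pair the mice.

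The directions that turned are given here where the difference was called with the 75th percentile or under the alternative; differences uncalled under both turned too, such as Ctsc, Ctsz, Atp6v0d1 and Gaa in Bach2 KO against WT mice with quantile normalization. With quantile normalization, Bach2 KO against WT became 0.63 for Atp6v1e1, 0.12 for Ctsa, 0.64 for Ctsb, 0.11 for Ctsd, 0.070 for Ctsh, 0.83 for Ctsl, 0.19 for Ctss, 0.12 for Gla, 0.63 for Grn, 0.59 for Hexa, 0.17 for Lamp1, 0.00081 for Man2b1, 0.41 for Npc2 and 0.13 for Cst3; DKO against WT became 0.38 for Ctsa, 0.56 for Ctsb, 0.39 for Hexa and 0.34 for Lamp1. With no scaling Ctsb became 0.43 in Bach2 KO and 0.43 in DKO mice, and Ctsl 0.60 in Bach2 KO mice. With the series matrix values, which hold other probes for some genes and 30 of the 49 genes, Gaa became 1.19 in Bach2 KO against WT, and Lamp2 1.54 in DKO against WT and 1.48 in DKO against Bach1 KO mice. When probes were averaged Ctsd became 0.94 in Bach2 KO and 0.91 in DKO mice. Depth does not limit these genes, all well above background on all 12 arrays; 3 mice per genotype limit the precision.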
